A study of Mus musculus with 20 samples.

Results

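The 35 genes described here belong to the endoplasmic reticulum (ER) stress response, and their transcript levels were compared in the livers of 4 inbred mouse strains. They were taken by their symbols from a fixed list of ER genes. That list was chosen with earlier results of these data known. All 35 were measured, out of 19938 genes with a probe set of 1 symbol. They fall into 15 genes of protein folding (Hspa5, Hyou1, Hsp90b1, Pdia3, Pdia4, Pdia6, P4hb, Calr, Canx, Dnajb9, Dnajb11, Dnajc3, Sdf2l1, Creld2 and Manf), 7 of protein degradation (Herpud1, Derl1, Derl2, Derl3, Sel1l, Syvn1 and Edem1), 10 of signalling (Xbp1, Atf3, Atf4, Atf6, Ddit3, Trib3, Ern1, Eif2ak3, Ppp1r15a and Asns) and 3 of the ER membrane (Wfs1, Sec61a1 and Sec61b). Where a gene had several probe sets, the brightest one on average was read.

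Proteins bound for secretion fold in the ER, and the hepatocyte, which makes most plasma proteins, carries a large load of them. When unfolded proteins build up, 3 sensors in the ER membrane respond: Ern1 (the kinase and RNase IRE1) splices Xbp1 mRNA, Atf6 is cut to free a transcription factor, and Eif2ak3 (the kinase PERK) slows translation while Atf4 is made. XBP1 and ATF6 are known to raise chaperones and degradation genes through ER stress response elements in their promoters, and ATF4 raises Ddit3 (CHOP), Trib3 and Asns.

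One whole-transcript array was hybridised per animal with liver RNA of 20 male mice, 5 each of NZO/Hl (NZO), C57/Bl6 (B6), C3H and 129P2/OlaHsd (129P2). NZO is a polygenic strain used as a model of obesity and diabetes. All animals were 6 weeks old and had a high-fat diet with 45% of calories from fat from weaning at 21 days, so no strain was sampled on another diet. None of these arrays carries a knockdown or an ER stress agent, and arrays of whole mRNA do not show the splicing of Xbp1 or the cutting of Atf6. Values are on a log2 scale, on which a difference of 1 is a 2-fold difference. Differences are given with their standard error (SE), group means with the standard deviation (SD, n = 5), and animals of a strain are numbered only to name them. Nothing in the labels ties animals to litters, cages or array runs. The p-values set strain differences against the spread between animals within strains. A litter, cage or array run that goes with strain cannot be told apart from strain.

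Of the genes measured, 14190 were tested, and all 35 members were among them and were above the dim level, the 40th percentile of an array, on every array. A gene is said to be called where its adjusted p was under 0.05. The defining hepatocyte markers were bright in each strain, with strain means of Alb from 14.26 ± 0.03 (B6) to 14.31 ± 0.03 (C3H). Array medians lay between 6.94 and 7.10. The interquartile range of an array was widest in B6, at 2.43 on average, against 2.31 to 2.33 in the other strains, and the level of 49% of tested genes followed it, against 17.1% of the members (6 of 35: Dnajc3, Derl2, Sel1l, Edem1, Atf6 and Eif2ak3). In whole liver, fewer cells of a type and less RNA per cell cannot be told apart, and sequence differences between the strains under the probes were not tested.

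The promoters are shown first, because an ER stress response element was found in several folding and degradation genes. Promoters from 250 bases before to 50 after the start were given for 30 of the 35 genes by RefSeq on GRCm38.p6, and not for Hyou1, Manf, Derl1, Atf6 and Sec61a1. The series states no build, and this is the reference sequence rather than that of NZO, C3H or 129P2. The motifs searched, on both strands, were the ER stress response element (ERSE, CCAAT, any 9 bases, then CCACG), ERSE-II (ATTGG, any 1 base, then CCACG), TGACGTGG of XBP1 and ATF6, and TGATGNAAT of ATF4 and CHOP. ERSE was found in 9 of 30 members (30%), against 37 of 27025 genes (0.137%). It was in 7 of 13 folding genes (53.8%), 2 of 6 degradation genes (33.3%) and 0 of 9 signalling genes. ERSE-II was found in 2 members, Dnajb11 and Herpud1, and in 12 of 27025 genes (0.0444%). TGACGTGG was in 0 members and 193 genes (0.714%), and TGATGNAAT in 0 members and 293 genes (1.08%). The element was described in genes of this kind, so its presence in the list is no independent result. A match is a run of letters, and no match says only that these letters are not in that window. No match overlapped another. The matches are written in the direction of the motif, with the ends of the element in capitals and the bases between in lower case:
Calr ERSE, chr8:84847075-84847093 on the opposite strand: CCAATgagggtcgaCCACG
Canx ERSE, chr11:50325800-50325818 on the gene strand: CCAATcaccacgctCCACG
Creld2 ERSE, chr15:88819520-88819538 on the opposite strand: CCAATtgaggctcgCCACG
Derl3 ERSE, chr10:75893242-75893260 on the opposite strand: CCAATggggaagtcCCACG
Dnajb11 ERSE-II, chr16:22857852-22857862 on the gene strand: ATTGGcCCACG
Dnajc3 ERSE, chr14:118937827-118937845 on the gene strand: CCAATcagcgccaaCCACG
Herpud1 ERSE-II, chr8:94386377-94386387 on the gene strand: ATTGGgCCACG
Hsp90b1 ERSE, chr10:86705638-86705656 on the gene strand: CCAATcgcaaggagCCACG
Hsp90b1 ERSE, chr10:86705533-86705551 on the opposite strand: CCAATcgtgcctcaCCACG
Hspa5 ERSE, chr2:34772025-34772043 on the gene strand: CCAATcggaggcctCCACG
Pdia6 ERSE, chr12:17266491-17266509 on the gene strand: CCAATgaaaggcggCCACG
Syvn1 ERSE, chr19:6046532-6046550 on the gene strand: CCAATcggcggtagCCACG

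Position in these promoters varied. Counted from the start site, with -1 as the base just before it, the ERSE of Syvn1 lay nearest, from -44 to -26, followed by that of Hspa5 from -65 to -47 and that of Pdia6 from -98 to -80. Hsp90b1 held 2 copies, from -212 to -194 and, on the other strand, from -107 to -89. Dnajb11 held its ERSE-II after the start, at 7 to 17. The 250 bases before the start are given for Hspa5, which encodes BiP, the main ER chaperone, for Hsp90b1 with its 2 copies, for Pdia6, whose strain order differed from that of Hspa5 as described below, and for Herpud1, which holds ERSE-II. Matches are in capitals on the strand of the gene, so an element on the opposite strand reads as its reverse complement:
Hspa5, GRCm38.p6 chr2:34771840-34772089, plus strand: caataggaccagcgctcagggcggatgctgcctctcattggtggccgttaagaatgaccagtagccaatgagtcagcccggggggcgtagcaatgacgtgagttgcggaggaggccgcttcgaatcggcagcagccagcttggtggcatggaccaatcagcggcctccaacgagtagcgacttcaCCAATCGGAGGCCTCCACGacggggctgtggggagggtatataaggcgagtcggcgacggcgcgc
Hsp90b1, GRCm38.p6 chr10:86705445-86705694, minus strand: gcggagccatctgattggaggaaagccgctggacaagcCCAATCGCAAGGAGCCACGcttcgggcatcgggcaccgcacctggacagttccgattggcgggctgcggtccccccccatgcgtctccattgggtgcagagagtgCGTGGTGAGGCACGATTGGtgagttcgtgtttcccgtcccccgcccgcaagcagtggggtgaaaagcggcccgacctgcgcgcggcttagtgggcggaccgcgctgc
Pdia6, GRCm38.p6 chr12:17266339-17266588, plus strand: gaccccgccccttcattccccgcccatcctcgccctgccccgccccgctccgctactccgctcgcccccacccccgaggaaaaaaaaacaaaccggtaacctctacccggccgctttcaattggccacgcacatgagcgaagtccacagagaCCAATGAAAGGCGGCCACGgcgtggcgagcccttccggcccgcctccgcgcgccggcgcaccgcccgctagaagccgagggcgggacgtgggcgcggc
Herpud1, GRCm38.p6 chr8:94386179-94386428, plus strand: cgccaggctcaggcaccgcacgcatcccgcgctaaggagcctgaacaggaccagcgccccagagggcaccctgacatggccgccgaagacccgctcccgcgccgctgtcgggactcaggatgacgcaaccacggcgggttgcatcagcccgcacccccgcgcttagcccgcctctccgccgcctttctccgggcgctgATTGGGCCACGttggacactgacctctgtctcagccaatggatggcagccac

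Most folding genes differed among the strains. In the moderated F-test over all 4 strains (limma, Benjamini-Hochberg over all tested genes), 17 of 35 members were called (48.6%), while 17.0% of all tested genes were. The 17 held 14 of 15 folding genes, 1 of 7 degradation genes (Sel1l), 2 of 10 signalling genes (Atf6 and Trib3) and 0 of 3 membrane genes, of which 2 had an unadjusted F-test p under 0.05.

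NZO stood at the upper end. Against B6, 7 members were called higher (Pdia3, Pdia4, Pdia6, Calr, Canx, Dnajb11 and Sdf2l1), all of them folding genes, beside 3.63% of all tested genes. Against C3H, 6 were called higher (Pdia4, Pdia6, P4hb, Calr, Dnajc3 and Sdf2l1), again all folding genes, beside 3.51%. Against 129P2, 15 were called higher, beside 4.29%, and 1 lower (Trib3), beside 4.61%. Those 15 were 12 folding genes, Sel1l and Edem1 of degradation, and Xbp1. The comparisons share the NZO animals, so they are not separate evidence. The genes higher in NZO than in each other strain were 4: Pdia4, Pdia6, Calr and Sdf2l1. The share of all tested genes that were so is not given here. Only Calr kept its 3 calls under all 31 alternative settings. Pdia6 lost the call against C3H in 13 of them, Sdf2l1 that against C3H in 7 and Pdia4 that against B6 in 5. With arrays set to equal medians the counts higher against B6 and C3H were 3 and 3, beside 2.52% and 2.76% of all tested genes. With array weights 12 members were called against B6, beside 22.3% of all tested genes. Values did not overlap for 3 of the 7 genes called against B6, 5 of the 6 called against C3H and 12 of the 16 called against 129P2. Over all called genes this share was 68.3%, 75.5% and 68.7%, and over all tested genes it was 9.32%, 6.72% and 7.95%.

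The comparisons without NZO also gave calls. C3H against B6 gave 1 member higher (Pdia6), beside 2.71% of all tested genes, and 2 lower (P4hb and Atf6), beside 5.34%. Both counts are near those shares. In 129P2 against B6, 3 were lower (Hspa5, Hyou1 and Atf6), beside 4.08%, and 0 were higher, beside 2.11%. Between C3H and 129P2, 6 were higher in C3H (Hspa5, Hyou1, Pdia3, Dnajb11, Manf and Wfs1), beside 2.25%, and 1 was lower (P4hb), beside 2.78%. The last count is near its share.

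**Figure D1:**
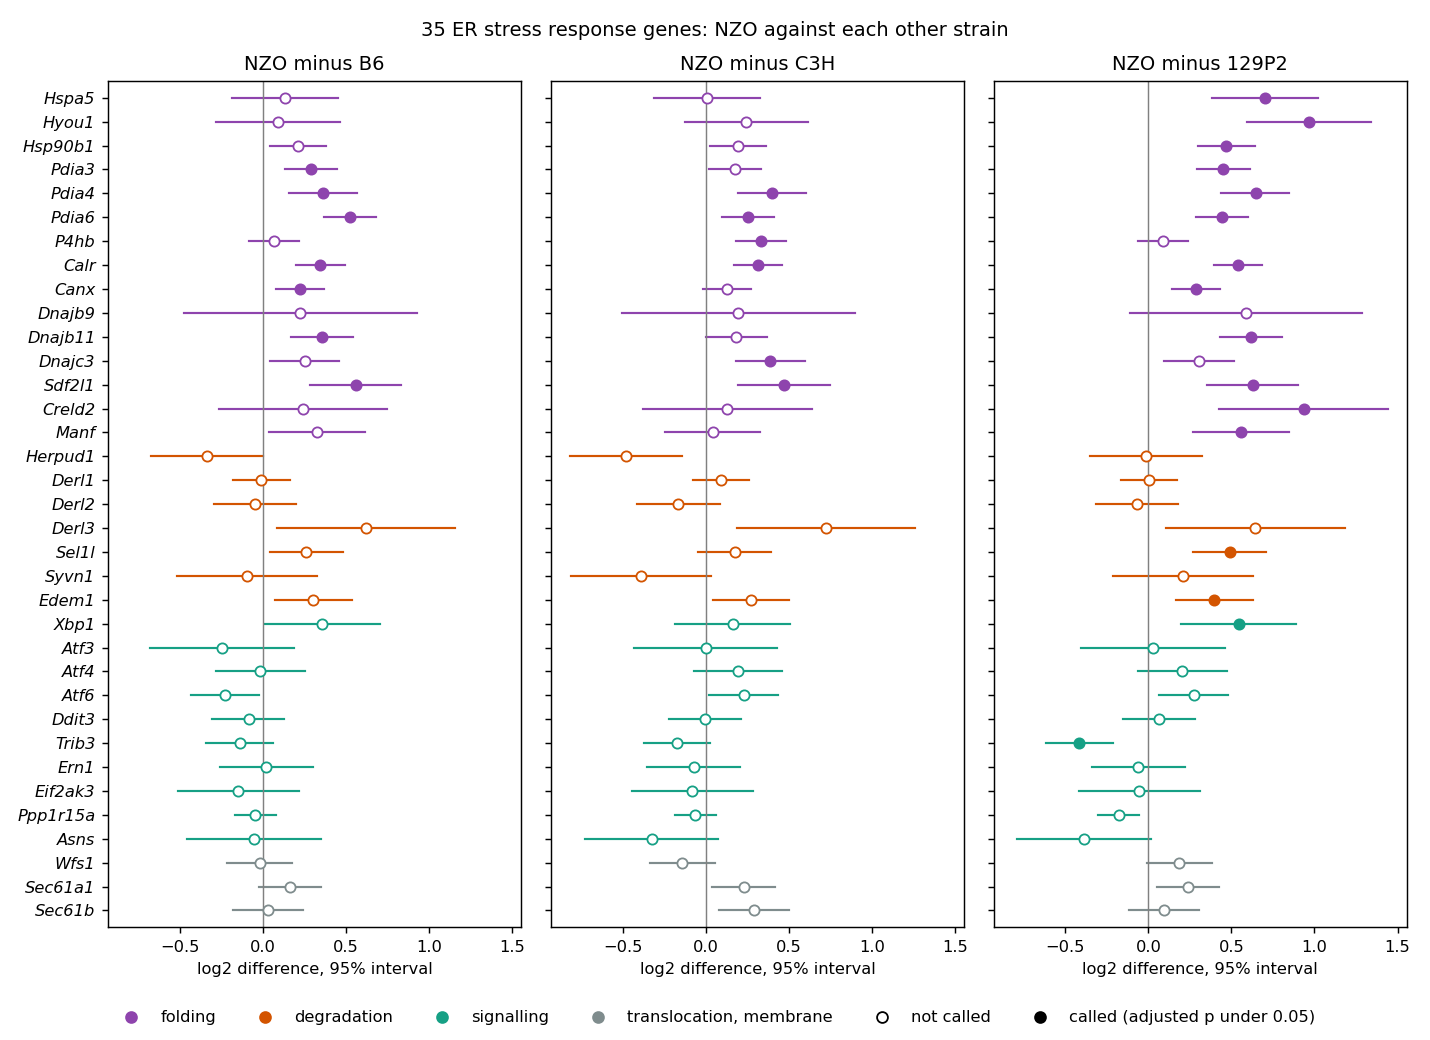
NZO minus each other strain for the 35 genes, on the log2 scale with 95% intervals from the limma fit, grouped by role; filled points passed an adjusted p of 0.05. The folding genes lie at or to the right of 0 against all 3 strains, furthest against 129P2, while signalling genes lie on both sides.

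As a list, the 15 folding genes had a median difference of 0.25 in NZO against B6, 0.20 against C3H and 0.56 against 129P2. All 15 differences were positive in each of these comparisons. The median over all tested genes was 0.009, -0.003 and 0.008. The signalling genes had medians of -0.07, -0.03 and -0.01 in the same order. Between C3H and 129P2 the folding median was 0.28, and in 129P2 against B6 it was -0.24, with 14 of 15 below 0.

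Per animal, the folding list separated NZO from 129P2 and less clearly from B6 and C3H. The mean deviation of the 15 genes from their overall means was 0.36, 0.04, 0.25, 0.36 and 0.32 in the NZO animals. It was -0.18, 0.07, 0.05, -0.14 and 0.11 in B6 and -0.13, 0.02, 0.18, 0.06 and 0.04 in C3H. In 129P2 it was -0.01, -0.60, -0.31, -0.13 and -0.37. NZO animal 2 was the lowest of its strain and lay within the range of B6 and C3H, and 129P2 animal 2 was the lowest of all 20. Without 129P2 animal 2, 14 members were called between NZO and 129P2, and 13 of these were among the 16 called with it.

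**Figure D2:**
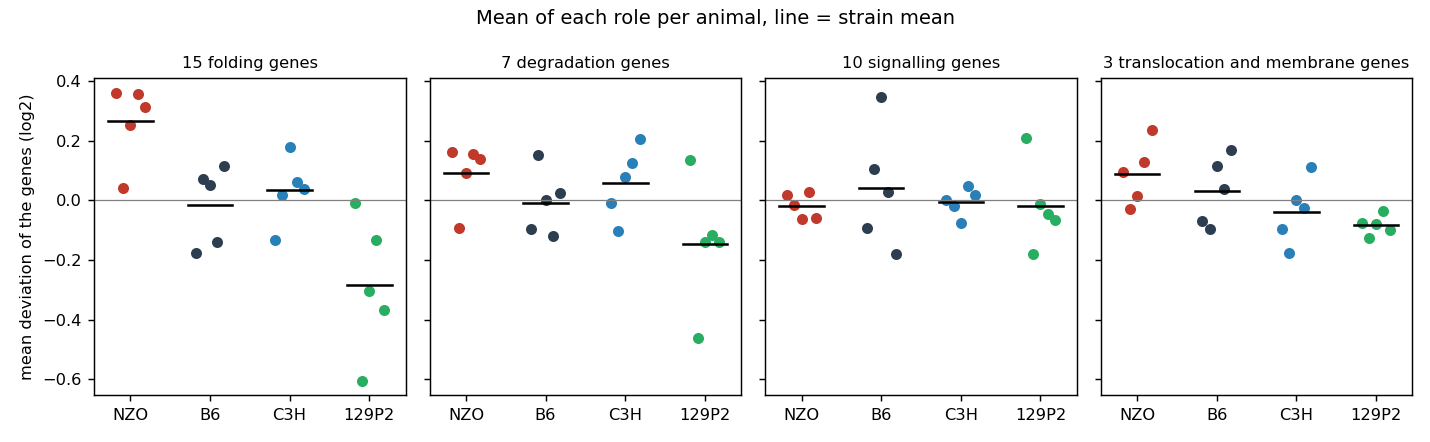
Mean deviation from the overall gene means, in log2 units, of the folding, degradation, signalling and membrane genes in each animal, 1 point per animal, with a line at the mean of each strain. The NZO folding means run from 0.04 to 0.36 and those of 129P2 from -0.60 to -0.01, while the signalling means of all strains surround 0.

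The lectin chaperones bind the sugar chains of new glycoproteins. Calr, calreticulin, a soluble lectin chaperone, was 12.58, 12.53, 12.65, 12.77 and 12.68 in NZO, 12.28, 12.25, 12.21, 12.31 and 12.44 in B6, 12.25, 12.33, 12.41, 12.32 and 12.33 in C3H, and 12.16, 11.93, 12.13, 12.27 and 12.04 in 129P2. Every NZO animal was above every animal of the other strains. The difference was 0.35 (SE 0.07, limma adjusted p = 0.00205) against B6, 0.31 (adjusted p = 0.00558) against C3H and 0.54 (adjusted p = 1.56e-05) against 129P2. Canx, calnexin, its membrane-bound relative, was 12.39, 12.23, 12.27, 12.23 and 12.29 in NZO, 12.00, 12.06, 12.01, 12.04 and 12.20 in B6, 12.05, 12.31, 12.12, 12.15 and 12.14 in C3H, and 12.03, 11.80, 12.06, 12.08 and 11.99 in 129P2. NZO did not overlap B6 or 129P2, while 1 C3H animal lay within NZO. Canx was higher in NZO than in B6 by 0.23 (SE 0.07, limma adjusted p = 0.041) and than in 129P2 by 0.29 (adjusted p = 0.00895). The first call was lost in 15 of 31 alternatives, 12 of which left out 1 animal, with adjusted p up to 0.199.

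Of the disulfide isomerases, which form and rearrange disulfide bonds, Pdia6 set NZO apart by a clear gap. Its values were 12.22, 12.23, 12.33, 12.33 and 12.31 in NZO, 11.70, 11.54, 11.77, 11.76 and 12.03 in B6, 12.02, 12.09, 12.02, 12.02 and 11.98 in C3H, and 11.75, 11.77, 11.97, 11.89 and 11.82 in 129P2. No NZO value overlapped another strain, and B6 rather than 129P2 was lowest. Pdia6 was higher in NZO by 0.52 (SE 0.08, limma adjusted p = 5.01e-05) against B6, by 0.26 (adjusted p = 0.0404) against C3H and by 0.44 (adjusted p = 0.00034) against 129P2, and it was higher in C3H than in B6 by 0.27 (adjusted p = 0.0308). The calls that involve C3H were lost in 13 and 10 of 31 alternatives, with adjusted p up to 0.101 and 0.128.

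Pdia4, a larger isomerase, was 12.13, 11.86, 12.20, 12.19 and 12.17 in NZO, 11.57, 11.74, 11.79, 11.71 and 11.92 in B6, 11.46, 11.75, 11.80, 11.77 and 11.77 in C3H, and 11.48, 11.16, 11.51, 11.74 and 11.43 in 129P2. NZO overlapped B6 through NZO animal 2 and B6 animal 5, and overlapped neither C3H nor 129P2. The differences were 0.36 (SE 0.10, limma adjusted p = 0.0193), 0.40 (adjusted p = 0.0125) and 0.65 (adjusted p = 0.000101) against B6, C3H and 129P2. A dimmer probe set of Pdia4 gave another order, with a mean of 8.13 ± 0.35 in NZO, then 8.02 ± 0.59 in B6 and 7.85 ± 0.24 in 129P2, and lowest in C3H at 7.07 ± 0.18. With the mean of both probe sets the difference from B6 was 0.24 (adjusted p = 0.274). That call was also lost with equal array medians (0.077) and without B6 animal 1 (0.0584), B6 animal 4 (0.0502) or NZO animal 3 (0.0545). The call against C3H was lost without C3H animal 1 (adjusted p = 0.051).

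Pdia3, the isomerase that works with the lectin chaperones, was 12.34, 12.12, 12.38, 12.34 and 12.35 in NZO, 12.00, 11.98, 11.99, 11.98 and 12.14 in B6, 12.08, 12.08, 12.21, 12.13 and 12.16 in C3H, and 11.93, 11.68, 11.76, 12.11 and 11.79 in 129P2. NZO animal 2 reached into B6 and C3H, and no NZO value overlapped 129P2. Pdia3 was higher in NZO than in B6 by 0.29 (SE 0.08, limma adjusted p = 0.0162) and than in 129P2 by 0.45 (adjusted p = 0.000319), and in C3H than in 129P2 by 0.28 (adjusted p = 0.0356). The last call was lost in 10 of 31 alternatives, with adjusted p up to 0.115. The call against B6 was lost with equal array medians (adjusted p = 0.0858).

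P4hb, protein disulfide isomerase itself, followed another order. Its values were 12.40, 12.48, 12.56, 12.64 and 12.46 in NZO, 12.33, 12.33, 12.52, 12.45 and 12.60 in B6, 12.05, 12.23, 12.18, 12.22 and 12.20 in C3H, and 12.38, 12.26, 12.54, 12.47 and 12.45 in 129P2. All 5 C3H animals lay below all others. NZO minus C3H was 0.33 (SE 0.07, limma adjusted p = 0.00425) and C3H minus B6 was -0.27 (adjusted p = 0.0224). The second call was lost in 5 of 31 alternatives, with array spread as a covariate (adjusted p = 0.0942) and without B6 animal 3, 4 or 5 or C3H animal 1. The difference from 129P2 was -0.24, with an adjusted p that rounds to 0.05 and lies under it, and this call was lost in 19 of 31 alternatives.

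Hspa5, Hyou1 and Hsp90b1 encode the main ER members of the heat shock families. Hspa5 (BiP), which binds unfolded chains and holds the sensors inactive, was 12.70, 12.25, 12.43, 12.58 and 12.49 in NZO, 12.10, 12.59, 12.57, 12.16 and 12.37 in B6, 12.31, 12.40, 12.63, 12.59 and 12.50 in C3H, and 12.39, 11.17, 11.73, 12.00 and 11.63 in 129P2. Values of NZO, B6 and C3H overlapped throughout, and 4 of 5 animals of 129P2 lay under all of them. NZO minus 129P2 was 0.70 (SE 0.15, limma adjusted p = 0.00385), a 1.63-fold difference, C3H exceeded 129P2 by 0.70 (adjusted p = 0.00637) and 129P2 minus B6 was -0.57 (adjusted p = 0.0256). The call against B6 was lost in 9 of 31 alternatives, 6 of which left out 1 animal, with differences from -0.42 to -0.57 there and adjusted p up to 0.139, the last with array spread as a covariate. NZO was not called above B6 or C3H in Hspa5, with 95% intervals of -0.19 to 0.45 and -0.31 to 0.32.

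Hyou1, an exchange factor for BiP, had the largest difference among the 42 calls over all members and comparisons. It was 10.61, 10.18, 10.49, 10.91 and 10.39 in NZO, 10.16, 10.49, 10.44, 10.27 and 10.78 in B6, 9.89, 10.28, 10.44, 10.38 and 10.37 in C3H, and 9.98, 8.96, 9.45, 10.10 and 9.26 in 129P2. All values of 129P2 lay under those of NZO and B6, and 2 lay within C3H. NZO minus 129P2 was 0.97 (SE 0.18, limma adjusted p = 0.000868), a 1.96-fold difference, 129P2 minus B6 was -0.88 (adjusted p = 0.00277), and C3H exceeded 129P2 by 0.72 (adjusted p = 0.0169). The last was lost without 129P2 animal 2, without 129P2 animal 5 and without the 3 arrays of narrowest spread, with adjusted p up to 0.108.

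Hsp90b1, the ER member of the Hsp90 family, was 12.92, 12.70, 12.79, 12.91 and 12.83 in NZO, 12.47, 12.64, 12.66, 12.56 and 12.76 in B6, 12.51, 12.64, 12.69, 12.70 and 12.63 in C3H, and 12.47, 12.14, 12.23, 12.62 and 12.33 in 129P2. NZO lay above 129P2 without overlap and by 0.47 (SE 0.08, limma adjusted p = 0.000418). The differences from B6, 0.21 (adjusted p = 0.109), and from C3H, 0.20 (adjusted p = 0.206), did not pass.

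**Figure D3:**
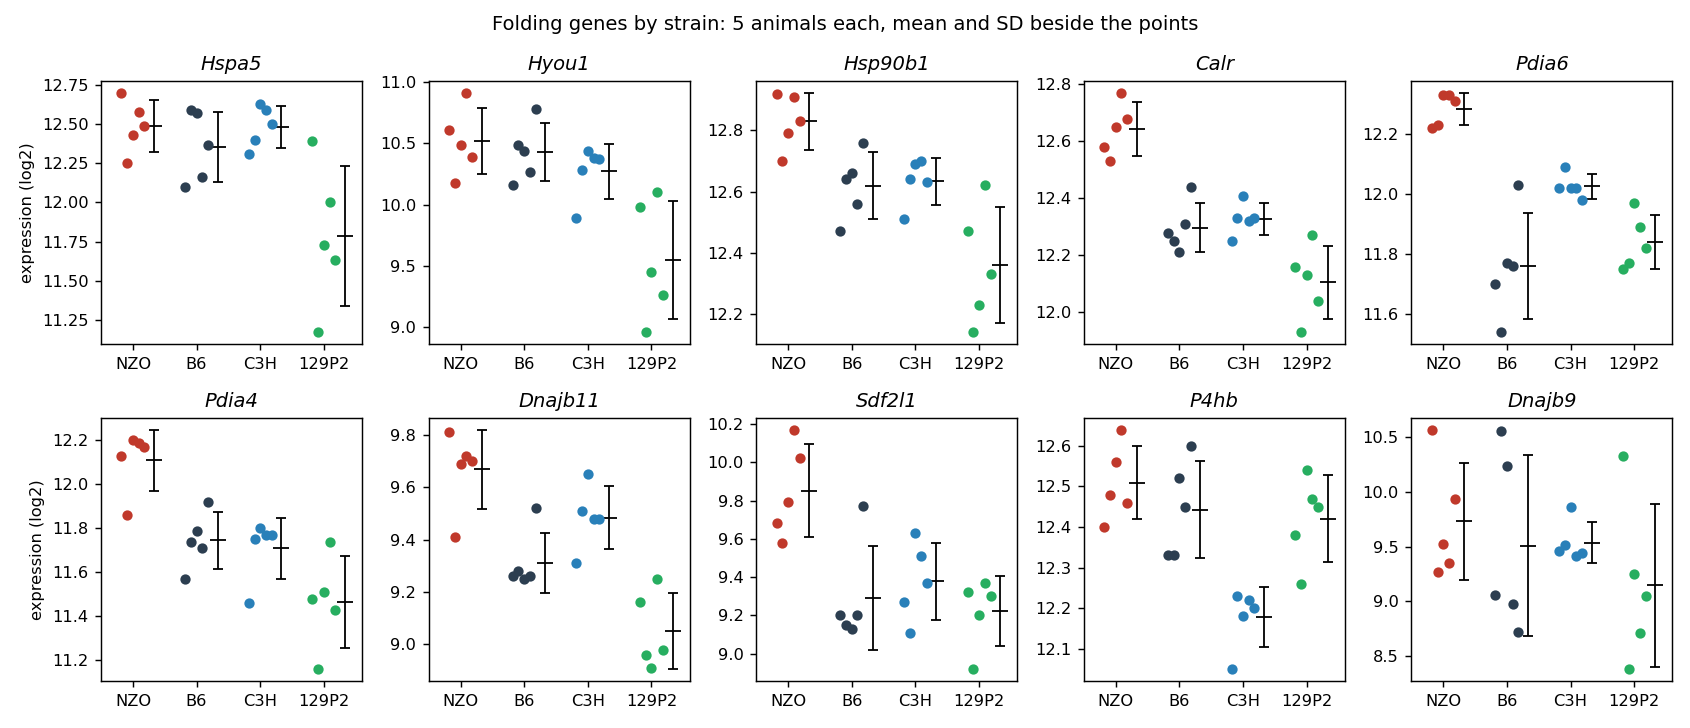
Expression (log2) of folding genes in each of the 20 animals by strain, with the mean and SD of the 5 animals beside the points; each panel has its own scale, which does not start at 0. For Calr and Pdia6 all NZO animals lie above all others, for P4hb all C3H animals lie lowest, and for Hspa5 and Hyou1 the low group is 129P2.

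Co-chaperones pass substrates to BiP and set its ATPase cycle. Dnajb11 was 9.81, 9.41, 9.69, 9.72 and 9.70 in NZO, 9.26, 9.28, 9.25, 9.26 and 9.52 in B6, 9.31, 9.51, 9.65, 9.48 and 9.48 in C3H, and 9.16, 8.96, 8.91, 9.25 and 8.98 in 129P2. All 5 animals of 129P2 lay under NZO and C3H, and 1 B6 animal reached NZO. Dnajb11 was higher in NZO than in B6 by 0.36 (SE 0.09, limma adjusted p = 0.0114) and than in 129P2 by 0.62 (adjusted p = 5.64e-05), and in C3H than in 129P2 by 0.43 (adjusted p = 0.004). The first of these calls was lost with equal array medians (adjusted p = 0.0559). Sdf2l1, a partner of the BiP complex, was 9.68, 9.58, 9.79, 10.17 and 10.02 in NZO, 9.20, 9.15, 9.13, 9.20 and 9.77 in B6, 9.27, 9.11, 9.63, 9.51 and 9.37 in C3H, and 9.32, 8.92, 9.20, 9.37 and 9.30 in 129P2. In B6 and C3H, 1 animal each overlapped NZO. Sdf2l1 was higher in NZO by 0.56 (SE 0.13, limma adjusted p = 0.00742) against B6, 0.47 (adjusted p = 0.0314) against C3H and 0.63 (adjusted p = 0.00297) against 129P2, and the middle call was lost in 7 of 31 alternatives, with adjusted p up to 0.106.

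Dnajc3, the co-chaperone that also restrains PERK, ranged from 11.34 to 11.62 in NZO and from 10.87 to 11.29 in C3H, without overlap. NZO minus C3H was 0.39 (SE 0.10, limma adjusted p = 0.0176). This call was lost with equal array medians (adjusted p = 0.0566) and without C3H animal 1 (0.0663) or NZO animal 4 (0.0571). Its 2 probe sets were deposited with the same values. Dnajb9, a co-chaperone that recruits BiP to IRE1, was the only folding gene not called by the F-test (adjusted p = 0.551). It ran from 8.38 in a 129P2 animal to 10.57 in an NZO animal, and its pooled SD within strains, 0.62, exceeded the 0.59 between its highest and lowest strain mean. Of all tested genes, 99.5% varied less within strains.

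Manf, a small secreted ER protein, was 9.26, 8.74, 9.04, 9.09 and 9.40 in NZO, 8.51, 8.99, 9.09, 8.62 and 8.70 in B6, 8.92, 8.92, 9.35, 9.05 and 9.09 in C3H, and 8.97, 8.42, 8.27, 8.68 and 8.40 in 129P2. In 129P2, 4 of 5 animals lay under all of NZO and C3H. Manf was higher than in 129P2 by 0.56 (SE 0.14, limma adjusted p = 0.011) in NZO and by 0.52 (adjusted p = 0.0302) in C3H, and the second call was lost in 7 of 31 alternatives. Creld2, an ER protein induced by ER stress, ranged from 9.38 to 10.21 in NZO and from 8.26 to 9.94 in 129P2. Its difference of 0.94 (SE 0.25, limma adjusted p = 0.0151) was no longer called without 129P2 animal 2, where it was 0.76 (adjusted p = 0.0525).

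Degradation genes, which pull misfolded proteins out of the ER, gave 2 calls, both higher in NZO than in 129P2, beside 4.29% of all tested genes. Sel1l, the adaptor of the ubiquitin ligase Syvn1, was 10.77, 10.45, 10.50, 10.57 and 10.47 in NZO, 10.18, 10.46, 10.28, 10.25 and 10.29 in B6, 10.27, 10.61, 10.24, 10.36 and 10.42 in C3H, and 10.26, 9.63, 10.21, 10.12 and 10.09 in 129P2. All NZO animals lay above all of 129P2, and NZO minus 129P2 was 0.49 (SE 0.11, limma adjusted p = 0.00348). Edem1, a lectin that marks glycoproteins for removal, ranged from 10.60 to 10.98 in NZO and from 9.85 to 10.59 in 129P2. Its difference was 0.40 (SE 0.11, limma adjusted p = 0.0247). The call was lost with equal array medians (adjusted p = 0.0725) and with only the 2 strains in the fit (0.0887, the highest over its alternatives). It was also lost without NZO animal 1, 129P2 animal 2 or 129P2 animal 3. The levels of Sel1l and Edem1 followed array spread. With it as a covariate their adjusted p were 0.000487 and 0.00844.

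Herpud1, a ligase cofactor with ERSE-II, had its lowest mean in NZO. It ranged from 11.49 to 12.07 in NZO and from 12.14 to 12.38 in C3H. These did not overlap, and NZO minus C3H was -0.48 (SE 0.16), but the limma adjusted p was 0.0884. It was called with only the 2 strains in the fit (adjusted p = 0.00688), with array weights (0.0224) and without 129P2 animal 1 (0.0366) or 4 (0.0448). Herpud1 was not called between C3H and 129P2 either, except without 129P2 animal 1. There C3H was higher by 0.62 (limma adjusted p = 0.0135), so a level under C3H was not particular to NZO. Derl3, a derlin of the machinery that moves proteins out of the ER, had a mean of 9.22 ± 0.64 in NZO and 8.60 ± 0.36, 8.50 ± 0.53 and 8.58 ± 0.27 in B6, C3H and 129P2. Its NZO animals ran from 8.37 to 9.84, and none of its 6 comparisons passed (limma adjusted p of 0.135, 0.115 and 0.143 for NZO against B6, C3H and 129P2). Derl1, Derl2 and Syvn1 were not called in any comparison. Among the 7 degradation genes, NZO against B6 and NZO against C3H gave 0 calls each by limma, with 3 genes at an unadjusted p under 0.05 in each. Of all tested genes, 3.63% and 3.51% were higher in these comparisons, and 6.64% and 3.09% were lower. In 7 genes, 0 calls differ little from those shares. Some alternatives did call degradation genes there. Sel1l and Edem1 were called higher in NZO than in B6 with array spread as a covariate (adjusted p = 0.00824 and 0.00974), with another quantile normalization (0.0105 and 0.0131), with array weights (0.0349 and 0.028), without the 3 arrays of narrowest spread (0.0364 and 0.0221) and without 129P2 animal 2 (0.0453 and 0.0235), and Edem1 also with only these strains in the fit (0.031). Derl3 was called higher in NZO than in B6 with array weights (0.00916) and without NZO animal 1 (0.027), and in both it was also called against C3H (0.0152 and 0.022).

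Signalling genes showed no direction common to the 3 NZO comparisons. Of the 10, 8 had a difference below 0 in NZO against B6, 7 against C3H and 5 against 129P2. Xbp1, the transcription factor spliced by IRE1, was 11.45, 11.36, 11.04, 11.38 and 11.05 in NZO, 11.04, 11.03, 10.64, 11.05 and 10.72 in B6, 11.10, 11.28, 10.85, 11.11 and 11.14 in C3H, and 11.23, 10.16, 11.23, 10.40 and 10.56 in 129P2. In 129P2, 2 animals were at 11.23 and 3 at or under 10.56. Xbp1 was higher in NZO than in 129P2 by 0.54 (SE 0.17, limma adjusted p = 0.0414), and the call was lost in 13 of 31 alternatives, 9 of which left out 1 animal, with adjusted p up to 0.194.

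Atf6, the sensor that is cut to a transcription factor, was highest in B6 rather than in NZO. It was 9.85, 9.64, 9.70, 9.55 and 9.84 in NZO, 9.85, 9.87, 10.14, 10.04 and 9.84 in B6, 9.64, 9.51, 9.22, 9.54 and 9.53 in C3H, and 9.67, 9.14, 9.43, 9.47 and 9.51 in 129P2. B6 overlapped neither C3H nor 129P2, but it overlapped NZO, from which it did not differ by the test (adjusted p = 0.157). C3H minus B6 was -0.46 (SE 0.10, limma adjusted p = 0.00483) and 129P2 minus B6 was -0.50 (adjusted p = 0.00221). Atf6 levels followed array spread, and with it as a covariate the adjusted p were 0.0415 and 0.0141.

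Trib3, a pseudokinase raised by ATF4 and CHOP, ran against the folding genes. It ranged from 7.49 to 7.66 in NZO and from 7.76 to 8.27 in 129P2, without overlap, and NZO minus 129P2 was -0.41 (SE 0.10, limma adjusted p = 0.00629). Every alternative kept this call.

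Atf4, the transcription factor made under PERK, was 8.97, 8.94, 8.93, 9.19 and 8.79 in NZO, 8.66, 8.91, 9.40, 9.14 and 8.77 in B6, 8.80, 8.60, 8.67, 8.83 and 8.95 in C3H, and 9.05, 8.44, 8.87, 8.91 and 8.54 in 129P2. Ddit3 (CHOP), its target linked to cell death, was 8.17, 8.02, 7.95, 8.16 and 8.04 in NZO, 8.12, 8.31, 8.48, 7.99 and 7.87 in B6, 7.87, 8.00, 8.25, 8.18 and 8.05 in C3H, and 8.24, 8.11, 7.82, 7.83 and 8.01 in 129P2. The strains overlapped for both genes. Their F-test adjusted p were 0.368 and 0.686 (limma). NZO minus B6 had a 95% interval of -0.28 to 0.25 for Atf4 and -0.30 to 0.13 for Ddit3. These intervals do not show equal levels.

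Ern1, Eif2ak3, Asns, Atf3 and Ppp1r15a, the phosphatase subunit that lets translation resume, were not called in any comparison. Ern1 strain means lay between 9.86 and 9.96, and those of Eif2ak3 between 7.96 and 8.11. Asns, the asparagine synthetase raised by ATF4, had its lowest mean in NZO, 7.43 ± 0.35, and its highest in 129P2, 7.81 ± 0.37. Atf3 was low in all strains except for B6 animal 3 at 8.79. NZO against B6 and NZO against C3H gave 0 calls among the 10 signalling genes by limma, with 2 and 1 at an unadjusted p under 0.05. Of all tested genes, 3.63% and 3.51% were higher in these comparisons, and 6.64% and 3.09% were lower. In 10 genes, 0 calls differ little from those shares.

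**Figure D4:**
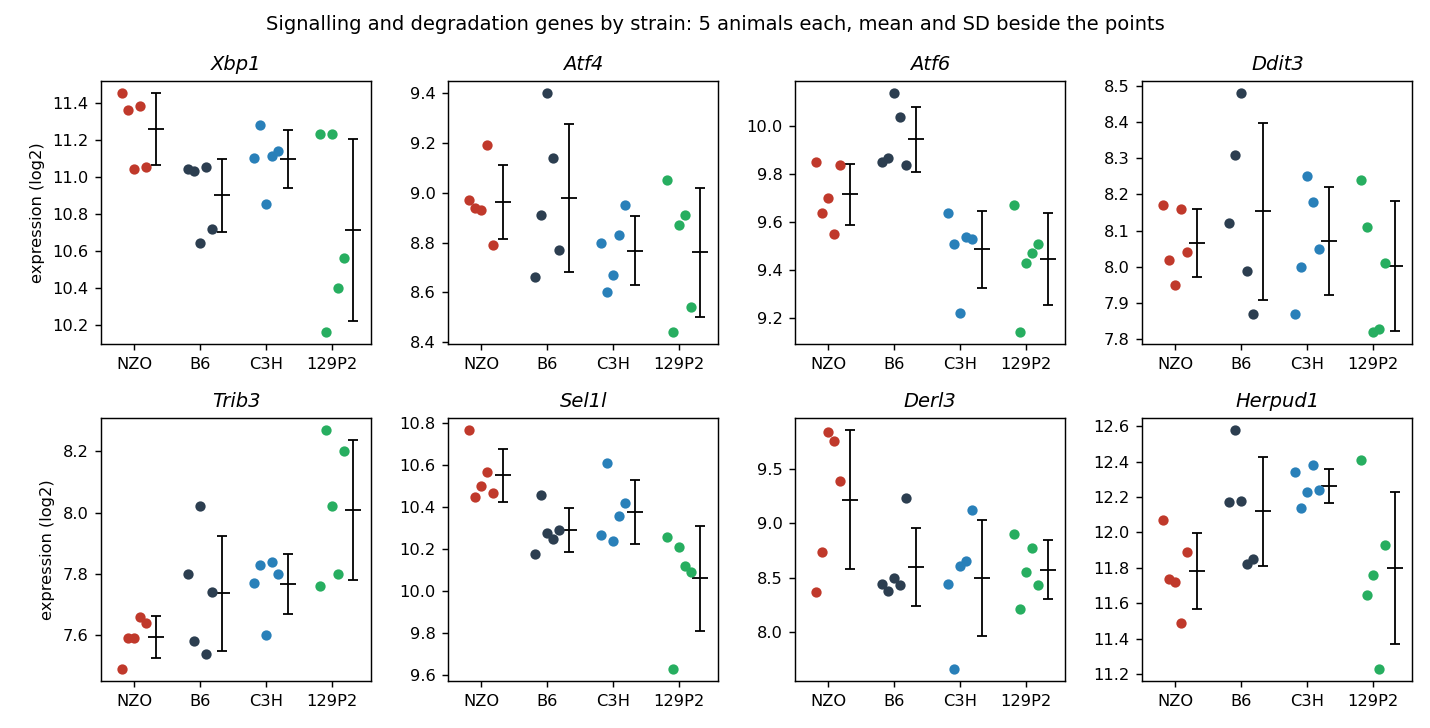
Expression (log2) of 5 signalling genes and 3 degradation genes in each of the 20 animals by strain, with the mean and SD of 5 animals beside the points; each panel has its own scale, which does not start at 0. B6 is highest for Atf6, NZO is lowest for Trib3, and Atf4 and Ddit3 overlap in all strains.

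Of the membrane genes, Wfs1, an ER membrane glycoprotein, was called between C3H and 129P2. It ranged from 8.08 to 8.47 in C3H and from 7.73 to 8.01 in 129P2, a difference of 0.33 (SE 0.09, limma adjusted p = 0.0461) that was lost in 18 of 31 alternatives. Sec61a1 and Sec61b, subunits of the translocation channel, were not called. Sec61a1 ranged from 11.33 to 11.45 in NZO, above all values of C3H and 129P2, with differences of 0.23 (limma adjusted p = 0.175) and 0.24 (adjusted p = 0.115). Sec61b was highest in NZO and lowest in C3H on each of its 3 probe sets, with means of 9.60 ± 0.10 and 9.31 ± 0.07 on the brightest.

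Lists of other ER genes, which hold none of the 35, were read from the same fit. Of 29 other folding genes tested, NZO was higher for 4 and lower for 1 against B6, higher for 2 against C3H and higher for 8 against 129P2, with list medians of 0.10, 0.16 and 0.16. The shares of all tested genes higher in NZO were 3.63%, 3.51% and 4.29%, and 6.64% were lower against B6. Ppib, a cyclophilin of the ER, was higher in NZO than in B6 by 0.36 (SE 0.07, limma adjusted p = 0.00164) and than in 129P2 by 0.24 (adjusted p = 0.0377). Dnajc10, a reductase that works with BiP, was higher in NZO than in 129P2 by 0.36 (adjusted p = 0.0146). Erp27, an ER protein that binds unfolded chains, was higher than in B6 by 0.36 in NZO (adjusted p = 0.0083) and by 0.43 in C3H (adjusted p = 0.00251), and Sil1, an exchange factor for BiP, was lower in C3H than in NZO, with NZO minus C3H of 0.33 (adjusted p = 0.00519).

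Translocation and glycosylation genes were also called higher in NZO. Of 35 tested, 6 were higher in NZO than in B6, 7 than in C3H and 9 than in 129P2, with medians of 0.09, 0.21 and 0.22. The shares of all tested genes higher in NZO were 3.63%, 3.51% and 4.29%. Ddost, a subunit of the oligosaccharyltransferase, was higher in NZO by 0.44 (SE 0.10, limma adjusted p = 0.00449), 0.62 (adjusted p = 0.000157) and 0.43 (adjusted p = 0.00543) against B6, C3H and 129P2. Spcs3, of the signal peptidase, was higher by 0.50, 0.57 and 0.37, with adjusted p of 0.000956, 0.000286 and 0.0135. Rpn1, also of the oligosaccharyltransferase, was higher by 0.33, 0.30 and 0.53, with adjusted p of 0.0187, 0.0492 and 0.000299. Tram1, a helper of the translocation channel, was higher than in B6 by 0.35 (adjusted p = 0.00452) and than in 129P2 by 0.37 (adjusted p = 0.00314).

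Few other degradation genes were called. Of 26 tested, limma called 0 as higher and 1 as lower in the comparison of NZO with B6, with 3 at an unadjusted p under 0.05. NZO against C3H gave 2 higher and 1 lower, and NZO against 129P2 gave 3 higher and 1 lower. The shares of all tested genes lower in NZO were 6.64%, 3.09% and 4.61% against B6, C3H and 129P2. The counts lower differ little from those shares. The shares higher in NZO were 3.63%, 3.51% and 4.29%. Edem2, a relative of Edem1, was higher in NZO than in 129P2 by 0.46 (SE 0.09, limma adjusted p = 0.0021). Os9, a lectin that delivers glycoproteins to Sel1l, was higher by 0.27 (adjusted p = 0.0262), and Aup1, of lipid droplets and the ER, was lower in NZO than in each other strain, by -0.29 (adjusted p = 0.0054), -0.26 (0.0151) and -0.23 (0.028). Erlin1 was higher in C3H than in 129P2 by 0.56 (adjusted p = 0.00253).

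Sensors and regulators outside the 35 gave few calls. Of 24 tested, 3 were lower in NZO than in B6, 1 was lower than in C3H, and 2 were lower and 1 higher than in 129P2, with list medians of -0.04, 0.01 and 0.02. Of all tested genes, 6.64% were lower against B6 and 3.09% against C3H, and counts this small in 24 genes differ little from those shares. Tmbim6, known as an inhibitor of IRE1 and of cell death, had its lowest level in NZO, which differed from B6, C3H and 129P2 by -0.29 (SE 0.06, limma adjusted p = 0.00289), -0.29 (adjusted p = 0.00374) and -0.26 (adjusted p = 0.00719). Bcl2l11, a death gene raised by CHOP, was also lower in NZO than in 129P2, by -0.42 (adjusted p = 0.000916). Creb3l1, of the Atf6 family in structure, was lower in NZO than in B6 by -0.37 (adjusted p = 0.00478), and Eif2ak2, a kinase of the same target as PERK, was higher in NZO than in 129P2 by 0.53 (adjusted p = 0.0187).

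Targets of ATF4 other than the members gave, for NZO against B6, 1 higher and 1 lower, then 2 and 1 against C3H, and 4 and 1 against 129P2, of 31 tested. Among all tested genes, 3.63% were higher and 6.64% lower against B6, and 3.51% and 3.09% against C3H. The counts against B6 and C3H differ little from those shares. Against 129P2 the shares were 4.29% and 4.61%. Vldlr, a lipoprotein receptor that PERK signalling is known to raise, was highest in 129P2, with 129P2 minus B6 of 0.91 (SE 0.11, limma adjusted p = 3.48e-06). Gpt2, a transaminase, was higher in NZO than in 129P2 by 0.62 (adjusted p = 0.00114), Ddit4 by 0.40 (adjusted p = 0.0058) and Aldh18a1, of proline synthesis, by 0.35 (adjusted p = 0.0131).

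Within strains, 11 members moved with Hspa5 from animal to animal by Pearson's r. Each member was set against Hspa5 over the 20 animals as deviations from the strain means, with labels permuted within strains, and p-values were adjusted over the 34 relations. Pearson's r passed for 11 of 34 genes and Spearman's rho for 8, and r was positive for 31 of 34. The genes were not all the same. Pdia3 and Wfs1 passed by rho (permutation adjusted p = 0.0489 for each) and not by r. Pdia4, Dnajb9, Dnajc3, Sel1l and Edem1 passed by r and not by rho. The median r was 0.63 for the 14 folding genes, of which 8 passed, 0.43 for the 7 degradation genes, of which 3 passed, and 0.40 for the 10 signalling genes, of which 0 passed the permutation test, though 2 had an unadjusted p under 0.05. Over the other 14189 tested genes, members included, r was positive for 51.4% with a median of 0.013, and 4.19% had an r at or above 0.574, the lowest among the 11, beside 14 of the 34 members (41.2%). These values share the array of each animal.

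Creld2 followed Hspa5 most closely, with r = 0.886 and rho = 0.856 (permutation adjusted p = 0.00068 for r and 0.00102 for rho). Next came Hyou1, with r = 0.818 and rho = 0.842 (permutation adjusted p = 0.00476 and 0.00102), and Hsp90b1 with r = 0.783 and rho = 0.856 (permutation adjusted p = 0.0161 and 0.00102). Syvn1, whose promoter holds an ERSE and which was not called between strains, had r = 0.774 and rho = 0.845 (permutation adjusted p = 0.00119 and 0.00102), and Manf had r = 0.772 and rho = 0.841 (permutation adjusted p = 0.00476 and 0.00156). Dnajb9 was not called between strains but had r = 0.74 and rho = 0.626 (permutation adjusted p = 0.0185 and 0.0542).

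The animals farthest from the median were 129P2 animals 1 and 2, at 0.61 and -0.61 from their strain mean. Without them, 6 of the 11 relations passed. The deviations were still those from the strain means over all 5 animals, the 2 left out included. The value of r was 0.796 for Creld2, 0.741 for Hyou1, 0.778 for Hsp90b1, 0.831 for Manf and 0.771 for Syvn1, with permutation adjusted p of 0.00646, 0.0105, 0.00646, 0.00646 and 0.00714, and for Pdia4 it was 0.68 (permutation adjusted p = 0.0201). The other 5 no longer passed. Without them r was 0.381 for Sel1l, 0.398 for Edem1, 0.458 for Dnajc3, 0.60 for Dnajb9 and 0.611 for Dnajb11 (permutation adjusted p = 0.313, 0.267, 0.267, 0.154 and 0.0747). For Dnajb11 r was 0.574 with all animals, so its value was not lower without them.

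Pdia6, which holds an ERSE and was called in NZO against all 3 strains, showed no such relation to Hspa5 within strains. Its r was -0.09 and its rho -0.005 (permutation adjusted p = 0.733 and 0.998). Xbp1 had r = 0.373 (rho = 0.003, permutation adjusted p = 0.404 and 0.998), and -0.291 without the 2 animals. Hspa5 itself had r = 0.351 with array spread within strains, and with spread removed 7 of the 34 relations passed.

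**Figure D5:**
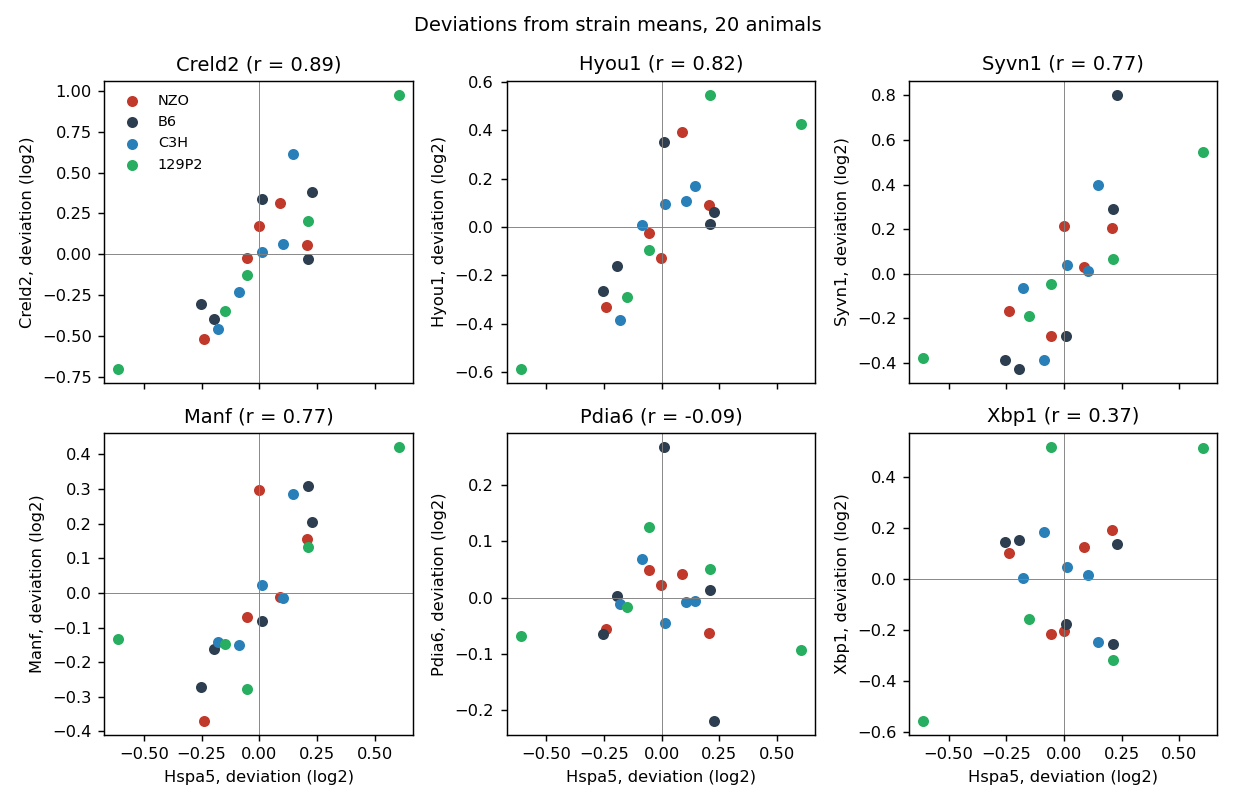
Deviations from strain means (log2) of Creld2, Hyou1, Syvn1, Manf, Pdia6 and Xbp1 on the y axes against those of Hspa5 on the x axis, for 20 animals coloured by strain. The points of Creld2, Hyou1, Syvn1 and Manf rise together with Hspa5 (r of 0.886, 0.818, 0.774 and 0.772), those of Pdia6 do not (r of -0.09), and those of Xbp1 do so only through the outer 129P2 points (r of 0.373 with and -0.291 without them).

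Other gene lists differed between the strains beside the folding genes, and their part in these results was not tested. Of 27 acute phase genes, which are raised in inflammation, NZO was higher for 20 and lower for 1 against B6, for 17 and 1 against C3H, and for 14 and 1 against 129P2, with list medians of 0.63, 0.53 and 0.61. Saa1, serum amyloid A, had a mean of 12.2 in NZO and of 8.78 (B6) to 10.07 (C3H) elsewhere. The summed level of the list (log2) ranged from 17.3 to 17.9 in NZO and from 16.8 to 17.2 over the other strains. In 129P2 minus B6, 3 of them were higher, with a list median of 0.09.

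Genes that follow feeding, a list of both lipogenic and fasting-induced genes, gave 8 of 17 lower in NZO than in B6. Of these 8, 5 were lipogenic (Acaca, Elovl6, Fasn, Scd1 and Srebf1) and 3 fasting-induced (Igfbp1, Pck1 and Ppargc1a), so the count does not stand for a fed or a fasted state. Against C3H, 4 were lower (Acaca, Elovl6, Me1 and Scd1), against 129P2, 2 (Ppargc1a and Srebf1), and 6 lipogenic genes were lower in 129P2 than in B6. Clock genes gave 1 higher and 1 lower of 17 against B6, 2 and 3 against C3H, and 1 lower against 129P2, of which the counts lower against B6 and 129P2 are near the shares of all tested genes. The time of day and the hours without food at sampling were not given in the sources used here, so their part was not tested.

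Cell type markers moved too. Endothelial markers were lower in NZO: 7, 4 and 6 of 10 against B6, C3H and 129P2, with medians of -0.45, -0.38 and -0.48, and the summed level ran from 11.7 to 12.1 in NZO and from 12.1 to 12.7 in the other strains. Stellate cell markers were lower too, in 6, 3 and 4 of 10, with medians of -0.48, -0.35 and -0.43. Reln, a stellate cell marker, was lower by -0.44 (limma adjusted p = 0.00659) in NZO than in B6. Macrophage markers gave 2 of 11 lower in NZO than in B6 and 1 lower than in 129P2. The count against 129P2 is near its share. In C3H, 3 of the macrophage markers were lower than in B6, beside 5.34% of all tested genes. Of 9 neutrophil markers, 4 were tested and the others were set aside as dim. Of the 4 tested, 2 were higher in NZO than in B6. Lcn2, which is among the 4, is also on the acute phase list. Hepatocyte markers, of which 12 were tested, gave 1 call each way between NZO and B6, with medians from -0.04 to 0.05 in the 3 NZO comparisons. These hepatocyte counts are near the shares of all tested genes.

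Plasma cells and pancreatic acinar cells are rich in ER chaperones, so their markers were set beside the folding genes. Jchain and Cd79a were dim on all 20 arrays. Of the 12 plasma and B cell markers, 5 were tested and 0 were called in any comparison by limma, with 1, 0 and 0 at an unadjusted p under 0.05 in NZO against B6, C3H and 129P2. The summed level of those 5 was 10.1 to 10.5 in NZO and 10.1 to 10.5 over the other strains. This sum leaves out the markers that were not tested, so it does not show whether plasma cell content differed. Of the 11 acinar markers, 5 were tested, and Cela1 was called higher in C3H than in B6, beside 2.71% of all tested genes. T and NK cell markers gave 1 of 5 higher in NZO than in 129P2, beside 4.29%. Cholangiocyte markers gave 1 call each way of 6 between NZO and B6, beside 3.63% higher and 6.64% lower. Counts of 1 in lists this short differ little from those shares.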

How the data were processed

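Liver RNA with an integrity number above 8, 150 ng per animal, was hybridised to 1 array for each of 20 mice, per the labels' protocols. The deposited log2 values were made by the authors by RMA in Affymetrix Expression Console, per the submitters' processing notes; versions are not given in the sources used here. They were used as deposited. Arrays have no read depth, and their number limits the precision.

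Of 35556 probe sets, 21789 had 1 gene symbol in the platform annotation, 1621 had several and 12146 were unnamed here. For each gene the probe set of highest mean was used. The dim level of an array was its 40th percentile, and testing required 5 or more arrays over it, which left 14190 genes and set aside 5748. The fit used limma 3.58.1 (R 4.3.3) with 1 mean per strain over all 4 strains, empirical Bayes moderation with an intensity trend (16 residual and 6.38 prior degrees of freedom) and Benjamini-Hochberg adjustment over all tested genes at 0.05, for 6 pairwise comparisons and the moderated F-test. Relations to Hspa5 used 100000 permutations within strains. Intervals are at 95%. Both computations were tested on simulated data.

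Values per animal are given for the 14 called members of lowest F-test p and for Hspa5, Xbp1, Atf4 and Ddit3; of each list of other ER genes, up to 4 called genes of lowest F-test p are named, and of marker and context lists the defining and called genes. Trib3 and the other members are given by ranges. The members and lists were chosen with earlier results of these data known. Alternatives were other filters, normalizations, moderation, array weights, array spread as a covariate, the mean of probe sets, only the strains compared, and each animal left out. A planned search of protein ends was not analysed here.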

Additional observations from a re-analysis of the deposited data

Results flagged for a closer look

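In 16 of 140 groups of 5 animals (35 genes in 4 strains, 11.4%), 1 animal stood apart from the other 4 by Dixon's criterion. Chance alone flags about 1 in 20 groups, and the genes of one array are not independent. No group of animals was formed from these values.

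B6 animal 5 was the high animal for 4 genes. It was at 12.14 for Pdia3 (others 11.98 to 12.00), 9.52 for Dnajb11 (9.25 to 9.28), 9.77 for Sdf2l1 (9.13 to 9.20) and 9.23 for Derl3 (8.38 to 8.50). B6 animal 3 was high for Atf3 at 8.79 (7.13 to 7.31) and low for Derl2 at 9.80 (10.10 to 10.16). NZO animal 2 was low for Pdia3 at 12.12 (12.34 to 12.38) and Pdia4 at 11.86 (12.13 to 12.20). NZO animal 1 was high for Edem1 at 10.98 (10.60 to 10.71), and NZO animal 5 for Atf3 at 7.51 (7.18 to 7.26).

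C3H animal 1 was low for Pdia4 at 11.46 (11.75 to 11.80) and P4hb at 12.05 (12.18 to 12.23), and C3H animal 3 was high for Dnajb9 at 9.86 (9.41 to 9.51). 129P2 animal 2 was low for Sel1l at 9.63 (10.09 to 10.26), Ppp1r15a at 7.19 (7.42 to 7.50) and Sec61a1 at 10.82 (11.18 to 11.26).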

How the results depend on the processing

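Of the 42 calls of a member in a pairwise comparison, 23 were kept under all 31 alternatives, 19 were lost under at least 1 and 0 changed direction. Calls were also gained: 29 pairs of a member and a comparison that did not pass were called under at least 1 alternative. The number of members called moved by over 1.5 times as follows. With equal array medians NZO against B6 gave 3 in place of 7, NZO against C3H 3 in place of 6, and C3H against 129P2 4 in place of 7. With array weights NZO against B6 gave 12, and 129P2 against B6 gave 7 in place of 3. C3H against 129P2 gave 4 with no filter on dim genes, 4 with only these strains in the fit and 3 without the 3 arrays of narrowest spread (C3H 3, 129P2 2 and NZO 2). Relations to Hspa5 were 7 in place of 11 with array spread removed. The causes were not tested.

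With 1 animal left out, the counts ranged from 5 to 9 for NZO against B6, 2 to 7 for NZO against C3H, 14 to 16 for NZO against 129P2, 1 to 3 for C3H against B6, 2 to 5 for 129P2 against B6, 2 to 9 for C3H against 129P2, 14 to 20 for the F-test over all members, 12 to 14 for the F-test over folding genes and 6 to 14 for relations to Hspa5. NZO against C3H gave 2 without C3H 1 and 3 without NZO 4. C3H against B6 gave 1 without B6 3, B6 4 or C3H 1. The comparison of 129P2 with B6 gave 5 without 129P2 1 or 129P2 4. C3H against 129P2 gave 3 without C3H 3, 4 or 5 or 129P2 2 or 3, and 2 without 129P2 5. Relations to Hspa5 were 6 without NZO 1, C3H 1 or 129P2 1, and 7 without B6 1, NZO 2 or 129P2 2.

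No paired analysis was possible because the labels give no replicate numbers shared between strains. Other background corrections and a block for slide or scan were not run, since the values are summarised and neither is given. All 35 genes were above the dim level on every array, and with a filter at the 60th percentile 8 of the 10 signalling genes were tested.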

Other observations

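Outside the 35 genes, 28 others held an ERSE in the 300 bases around their start in the reference sequence. Of these, 10 were tested, and 2 were called by the F-test: Acnat2, an acyltransferase, and Acacb, an acetyl-CoA carboxylase. This count is near the share of all tested genes called by the F-test, 17.0%. Acnat2 and Acacb are given because their promoters hold the element, and they were chosen after their values were seen. Acnat2 was highest in NZO, above B6, C3H and 129P2 by 2.02 (SE 0.27, limma adjusted p = 1.75e-05), 1.61 (adjusted p = 0.000305) and 1.76 (adjusted p = 9.61e-05). Acacb was highest in B6, with NZO minus B6 of -0.61 (SE 0.15, limma adjusted p = 0.0107), C3H minus B6 of -0.56 (adjusted p = 0.0235) and 129P2 minus B6 of -0.97 (adjusted p = 0.000193).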
